A study of Mus musculus with 4 samples.

Results

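Pink1 and Trp53inp2 encode a kinase of mitophagy and a factor of autophagosome formation, and both were measured in mouse heart RNA pulled down by an antibody to the modified base N4-acetylcytidine (ac4C). The 2 genes hold 4 of the 558 distinct regions in the table and are 2 of its 456 overlapped genes. They were chosen by name, with their counts in the comparison of NAT10 knockout with control hearts already known, so their values in that comparison are given here as a description, without p-values. Whether the fit over the whole table called them is stated in the same sense and supports nothing. Whole hearts of C57BL/6 mice gave 4 libraries, 2 labelled control and 2 labelled NAT10 knockout. NAT10 is the acetyltransferase that writes ac4C. Every library, control included, carried the treatment HFD+STZ+Exercise in a series on diabetic cardiomyopathy. The labels give no age or sex, nor the cells in which the knockout acts or the number of animals per library.

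Counts over the listed regions summed to between 674687 and 920818 per library, and the median region held between 82 and 143.5 counts. Knockout replicate 1 was the deepest library. Of 10 heart muscle markers 8 were in the table, while the 5 endothelial, 5 fibroblast, 6 macrophage and 4 adipocyte markers had no region. Of the markers of smooth muscle and pericytes, red blood cells and skeletal muscle, 2 of 6, 1 of 4 and 1 of 5 were measured. Of these, 0 passed the gene test with edgeR or with DESeq2. An unadjusted edgeR p below 0.05 was reached by 1, Abcc9, and by 79 of all 388 genes. The Abcc9 region is listed with Kcnj8 and had only 4 and 18 counts in control and 52 and 39 in knockout. Of the 8 heart muscle markers 3 rose in knockout at an edgeR adjusted p below 0.05 (Myl2, Myl3 and Pln, whose region also overlaps Cep85l and Gm47644), beside 4.90% of all genes called in either direction. Of these calls 1 was left without control replicate 1 (Myl3), and 1 without knockout replicate 2 or with 18S scaling (Pln). The summed level of the 8 markers lay between 105775 and 106635 CPM in control and between 106537 and 115695 in knockout. Their part in the values of Pink1 and Trp53inp2 was not tested. Nat10 itself was not analysed here, which leaves the knockout label without a check. The table covers only part of the transcriptome, so a gene without a region is not shown to be silent. No library of uncaptured RNA entered the analysis, so the amount of an RNA and its ac4C content cannot be told apart. In whole heart, fewer cells of a type and less RNA per cell cannot be told apart either.

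PINK1 is a kinase that is imported into healthy mitochondria and degraded. On mitochondria that have lost their membrane potential it stays on the outer membrane, phosphorylates ubiquitin and the ubiquitin ligase Parkin, and so marks the organelle for removal by autophagy. TP53INP2, the product of Trp53inp2, leaves the nucleus when autophagy is induced, binds proteins of the LC3 and GABARAP family and takes part in autophagosome formation, and it also acts as a coactivator of nuclear receptors such as the thyroid hormone receptor. Heart muscle cells are dense in mitochondria and rarely divide, so clearance of mitochondria is much studied in them.

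The table gives no position for a region itself, only the position of a listed gene. Of the 2 Pink1 regions, 1 is listed with the microRNA gene Mir7019 (chromosome 4, 138043443 to 138043511, minus strand) and 1 with the predicted gene Gm55915 (chromosome 4, 138053291 to 138053400, minus strand), which this region also overlaps. In the table these 2 listed genes lie 9779 bases apart. Both Trp53inp2 regions are listed with Trp53inp2 itself (chromosome 2, 155223734 to 155231770, plus strand), so they are told apart here by their counts, as the high-count and the low-count region. The submitters' processing notes name mm10, the same assembly as GRCm38, but these positions differ from those of GRCm38, so they are printed only as the table gives them.

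The Mir7019 hairpin is shown because 1 Pink1 region is listed with it rather than with Pink1. In RefSeq it spans chr4:138316132-138316200 on the minus strand of GRCm38. In the main GENCODE M21 coding transcript of Pink1, which has 8 exons, it forms the last 69 bases of an intron of 1173 bases, directly before exon 6. In a short Pink1 transcript of 3 exons it lies inside exon 1. Reads over the hairpin could thus belong to the Pink1 pre-mRNA, to that short transcript or to the microRNA. The region is only listed with Mir7019 and its own position is not given, so its counts are not shown to cover the hairpin. Capitals mark the mature arms in the hairpin and the seed, bases 2 to 8, in each arm.
Mir7019 hairpin: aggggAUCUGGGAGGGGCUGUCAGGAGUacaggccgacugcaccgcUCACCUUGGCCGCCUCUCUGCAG
mmu-miR-7019-5p: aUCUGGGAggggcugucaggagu
mmu-miR-7019-3p: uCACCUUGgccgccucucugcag

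Pink1, the mitophagy kinase gene, stood lower at each region in both knockout libraries than in both controls with the scaling used here. The order at the region listed with Mir7019 depends on that scaling. The region listed with Gm55915 had 164 and 186 counts in control replicates 1 and 2, and 174 and 116 in knockout replicates 1 and 2. After scaling to library size, as CPM with trimmed mean of M values (TMM) factors, this was 265 and 271 in control and 159 and 182 in knockout. The raw counts of the groups overlap, and the scaled values do not, since knockout replicate 1 was the deepest library. The mean was 268 ± 4.17 CPM in control and 171 ± 15.8 in knockout (SD, n = 2), or 1.57-fold lower in knockout. Each of the 4 ratios of a knockout to a control library lay between 0.589 and 0.687.

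The Pink1 region listed with Mir7019 varied more. The control libraries had 106 and 168 counts and the knockout libraries 160 and 57, and the raw values overlap again. The scaled values were 171 and 245 CPM in control against 147 and 89.4 in knockout, with a mean of 208 ± 51.9 against 118 ± 40.5 (SD, n = 2). The lowest control and the highest knockout library were thus close, at a ratio of 0.857, while the other extreme pair had a ratio of 0.365. By library totals only, control replicate 1 (106 of 674687 counts) lay below knockout replicate 1 (160 of 920818), so the groups overlapped. Within groups the log2 CPM had an SD of 0.43 for this region and 0.09 for the region listed with Gm55915, beside a median of 0.20 over all regions. By that spread the Mir7019 region ranked 90 of 558 and the Gm55915 region 445 of 558, with 1 the widest.

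Trp53inp2, the autophagosome factor gene, stood higher in both knockout libraries. Its high-count region had 64 and 74 counts in control and 130 and 86 in knockout, and here the raw values do not overlap. On the scaled measure the controls had 103 and 108 CPM and the knockouts 119 and 135, a mean of 106 ± 3.08 against 127 ± 11.1 (SD, n = 2). The low-count region had 21 and 36 counts in control and 69 and 62 in knockout. Scaled, the controls had 33.9 and 52.4 CPM and the knockouts 63.2 and 97.2, with means of 43.2 ± 13.1 and 80.2 ± 24.0 (SD, n = 2). That is 1.86-fold higher in knockout for the low-count region and 1.20-fold higher for the high-count region. The low-count region rests on few counts, and its within-group SD of 0.42 on the log2 scale ranked 96 of 558.

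**Figure D1:**
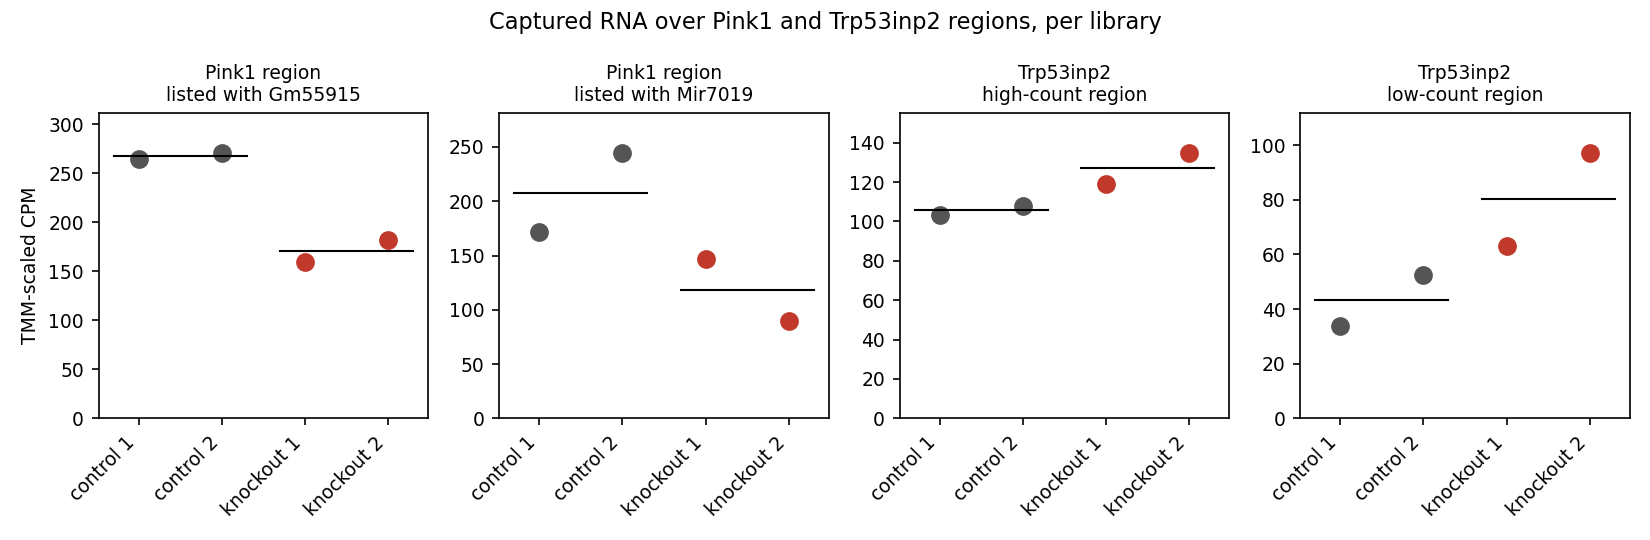
TMM-scaled CPM (vertical axis, from 0) of the 4 regions in each library, with grey points for control, red points for knockout and a black line at each group's mean of 2 libraries. Both Pink1 regions lie lower in knockout and both Trp53inp2 regions higher, and the gap between the nearest libraries is small for the Pink1 region listed with Mir7019 (171 against 147 CPM).

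With counts summed per gene, Pink1 had 270 and 354 counts in control and 334 and 173 in knockout, and Trp53inp2 85 and 110 in control and 199 and 148 in knockout. The fitted log2 fold change of knockout over control was -0.69 ± 0.14 (SE) for Pink1 and 0.49 ± 0.19 for Trp53inp2, while the median over all genes tested was 0.05. By region it was -0.66 ± 0.17 and -0.78 ± 0.22 for Pink1 and 0.26 ± 0.22 and 0.86 ± 0.35 for Trp53inp2, the latter for the low-count region. Both Pink1 regions were called and both Trp53inp2 regions were not, beside 3.94% of all regions called by edgeR's quasi-likelihood test with a Benjamini-Hochberg adjusted p below 0.05. Summed per gene, Pink1 was called and Trp53inp2 was not, beside 4.90% of all genes called (11 higher and 8 lower, against 9 and 21 with upper-quartile factors and 7 and 3 by library totals only). The TMM-scaled groups did not overlap in 4 of the 4 regions, as in 47.5% of all regions. By library totals only, those of the region listed with Mir7019 overlapped. Since the members were chosen on this contrast, nothing is read from these shares.

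Pink1 summed per gene lost its call in 3 settings, at -0.64 when knockout replicate 2 was left out, at -0.59 when counts were scaled by library totals only, and at -0.51 when they were scaled by the 18S rRNA region. Of its regions, 2 were called as reported, 1 with halved counts, and 0 without control replicate 2, without knockout replicate 2, with totals alone, with 18S scaling, with the replicate block and with the DESeq2 Wald test. Without knockout replicate 1, where the Gm55915 region lost its call at -0.56, the Mir7019 region moved to -1.22. It stood at -0.50 without control replicate 2 and -0.51 without knockout replicate 2. Trp53inp2 was called neither per region nor per gene in any of the alternatives run.

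**Figure D2:**
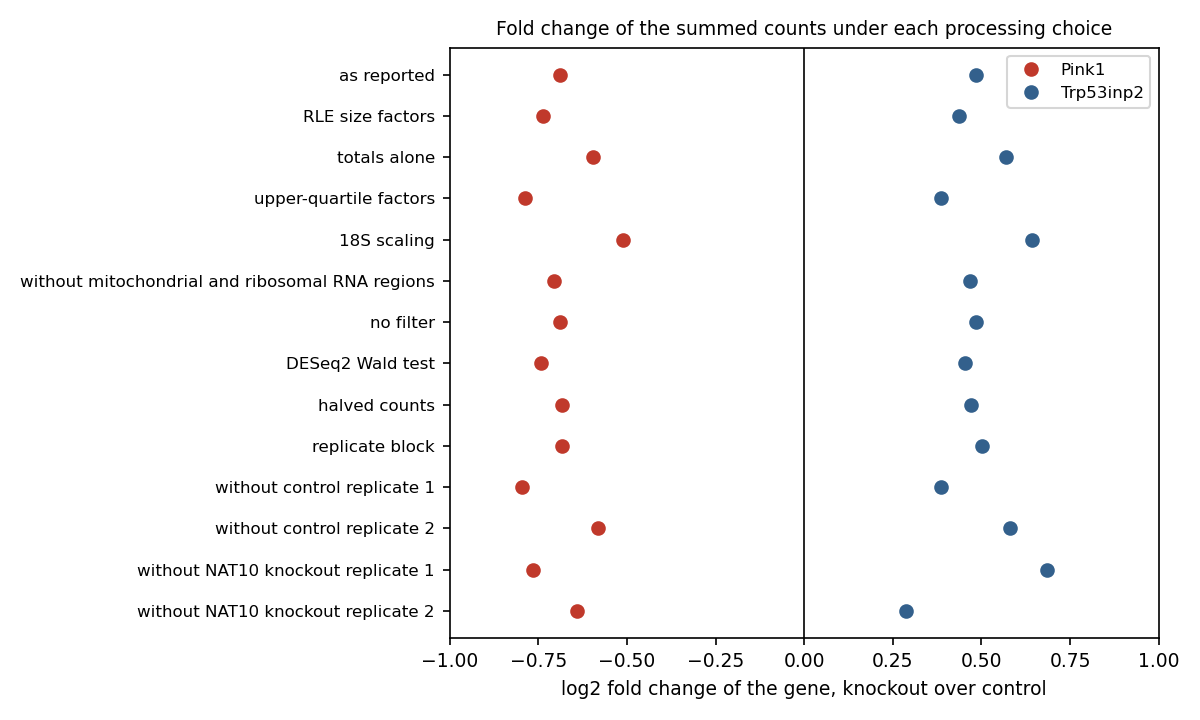
Log2 fold change of knockout over control (horizontal axis) for the summed counts of Pink1 (red) and Trp53inp2 (blue) under each processing choice (vertical axis). Pink1 ranges from -0.80 to -0.51 and Trp53inp2 from 0.29 to 0.69, on opposite sides of 0 in each setting drawn.

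The quotient of the 2 genes' counts within a library needs no scaling. Pink1 had 3.18 and 3.22 counts per Trp53inp2 count in control replicates 1 and 2, and 1.68 and 1.17 in knockout replicates 1 and 2. The control libraries were nearly equal in this quotient, and both knockout libraries lay below them. The 2 genes were chosen with these counts known, so the difference in the quotient is a description and supports nothing. The quotient is not a ratio of RNA levels, because the lengths of the regions are not used here.

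How a gene's counts divided between its regions can be read without scaling too. The region listed with Gm55915 held 60.7% and 52.5% of the Pink1 counts in the control libraries and 52.1% and 67.1% in the knockout libraries. Exact binomial 95% intervals, which cover counting error only, ran from 54.6% to 66.6% in control replicate 1 and from 59.5% to 74.0% in knockout replicate 2. The pooled shares were 56.1% in control and 57.2% in knockout, closer to each other than the 2 libraries of either group. For Trp53inp2, the low-count region held 24.7% and 32.7% in control and 34.7% and 41.9% in knockout. Both knockout libraries lay above both controls in this share, the nearest at 34.7% against 32.7%. Its pooled share was 29.2% (23.0% to 36.2%) in control and 37.8% (32.6% to 43.1%) in knockout. These intervals overlap, but they take counts as independent, and their overlap is not a test. The difference in share was not tested. The log2 fold changes of the 2 regions differed by 0.12 for Pink1 and by 0.60 for Trp53inp2. Among 45 genes, or genes that share their regions, with exactly 2 regions, the median difference was 0.29, and it was larger than that of Trp53inp2 in 12 and larger than that of Pink1 in 32.

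**Figure D3:**
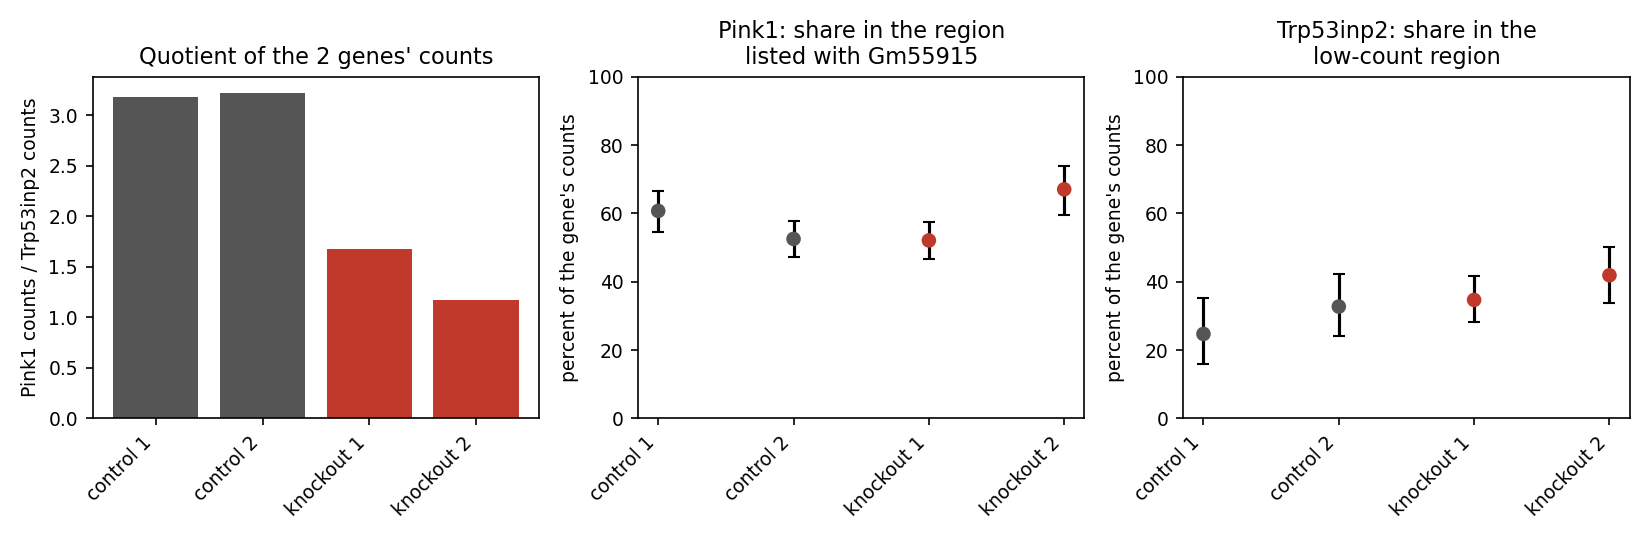
Left, Pink1 counts divided by Trp53inp2 counts in each library (bars from 0, grey control, red knockout). Middle and right, the percent of each gene's counts in 1 of its 2 regions per library, with exact binomial 95% intervals as bars. The quotient is 3.18 and 3.22 in control and 1.68 and 1.17 in knockout, and the shares show no such separation for Pink1.

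Other genes of these pathways and of related processes were taken from 7 lists with 143 genes beside the members, of which 14 were in the table. The edgeR gene test called 1 of these 14, lower in knockout, beside 4.90% of all genes (19 of 388), a share that 1 of 14 lies close to. DESeq2 called the same gene, 1 of the 11 it called in all. Of the 14, 7 had fitted log2 fold changes above 0 and 7 below, with a median of -0.04 beside 0.05 over all genes. With 18S scaling, which moved the median of all genes to 0.23, 10 of the 14 stood above 0. The median of the 14 was then 0.12, still below that of all genes. It lay above that of all genes without control replicate 1 (0.05 against 0.01) and without knockout replicate 1 (0.08 against 0.02). In the other settings it lay below. Of the list around PINK1 and Parkin, 3 of 30 genes were measured, Pink1 among them. Mfn2, the outer-membrane mitofusin that PINK1 and Parkin act on, had 170 and 180 counts in control and 285 and 172 in knockout, and its fitted change was 0.01 ± 0.16 on the log2 scale (edgeR adjusted p = 0.993). Vdac1, the outer-membrane channel, stood at 0.12 ± 0.15 (adjusted p = 0.665). Neither passed, and neither lay near the Pink1 value of -0.69. Nipsnap2, a mitochondrial protein that recruits autophagy receptors to damaged mitochondria, was the 1 gene measured of 10 mitophagy receptors and related genes and stood at 0.33 ± 0.15 (adjusted p = 0.175).

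Of the autophagosome list, 4 genes besides Trp53inp2 were measured and 0 passed by edgeR, 0 by DESeq2 and 0 at an unadjusted edgeR p below 0.05. Among them were 3 of the ubiquitin-like family that TP53INP2 binds. Map1lc3b had 30 and 38 counts in control and 70 and 52 in knockout, at 0.50 ± 0.34, and Gabarap stood at 0.64 ± 0.40 (edgeR adjusted p = 0.436 and 0.380). Map1lc3a stood at -0.14 ± 0.18 (edgeR adjusted p = 0.690). With 18S scaling, which moved all genes nearly alike, it stood at 0.03, below the median of all genes. The table lists Map1lc3a on the same chromosome as Trp53inp2, with 103740 bases between them. Vmp1, an endoplasmic reticulum membrane protein needed early in autophagosome formation, stood at 0.18 ± 0.17 (adjusted p = 0.599). The Gabarap region is listed with Phf23 and the Vmp1 region with Gm11478, so these counts are not certain to belong to 1 transcript.

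Of the lysosome and autophagy control list, 5 of 28 genes were measured, and 0 passed by edgeR or by DESeq2, with 2 at an unadjusted edgeR p below 0.05, as were 79 of all 388 genes tested. The lysosomal protease genes Ctsd and Ctsb stood at -0.31 ± 0.14 and 0.11 ± 0.21, and Psap, the saposin precursor gene, at -0.28 ± 0.14 (edgeR adjusted p = 0.183, 0.787 and 0.225). Hspb8, a chaperone gene of selective autophagy, stood at -0.23 ± 0.22 (adjusted p = 0.599). The list of FoxO-linked and atrophy genes had 1 measured member of 16, Pdk4, the kinase that inhibits pyruvate dehydrogenase. It fell, at -2.15 ± 0.23 (edgeR adjusted p = 3.73e-17), and is the 1 called gene of the 14. Pdk4 is not in the lists of mitophagy, autophagosome formation or lysosome genes. The lists were chosen with earlier results of these data known, so nothing is read from its call. Thra, a thyroid hormone receptor gene, stood at -0.09 ± 0.34 (adjusted p = 0.906) in counts merged with Nr1d1, and the list of mitochondrial fission, fusion and biogenesis had 0 of 14 genes in the table. Without control replicate 2 the called genes were 3, with Nipsnap2 and Psap added. The Ctsd counts are merged with Gm49369 and listed with Ifitm10, and those of Thra are listed with Gm57390. The Mfn2 regions are listed with Fv1, that of Vdac1 with 9530068E07Rik and those of Nipsnap2 with Cct6a and Gm15903, so for these genes too the transcript is not certain.

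**Figure D4:**
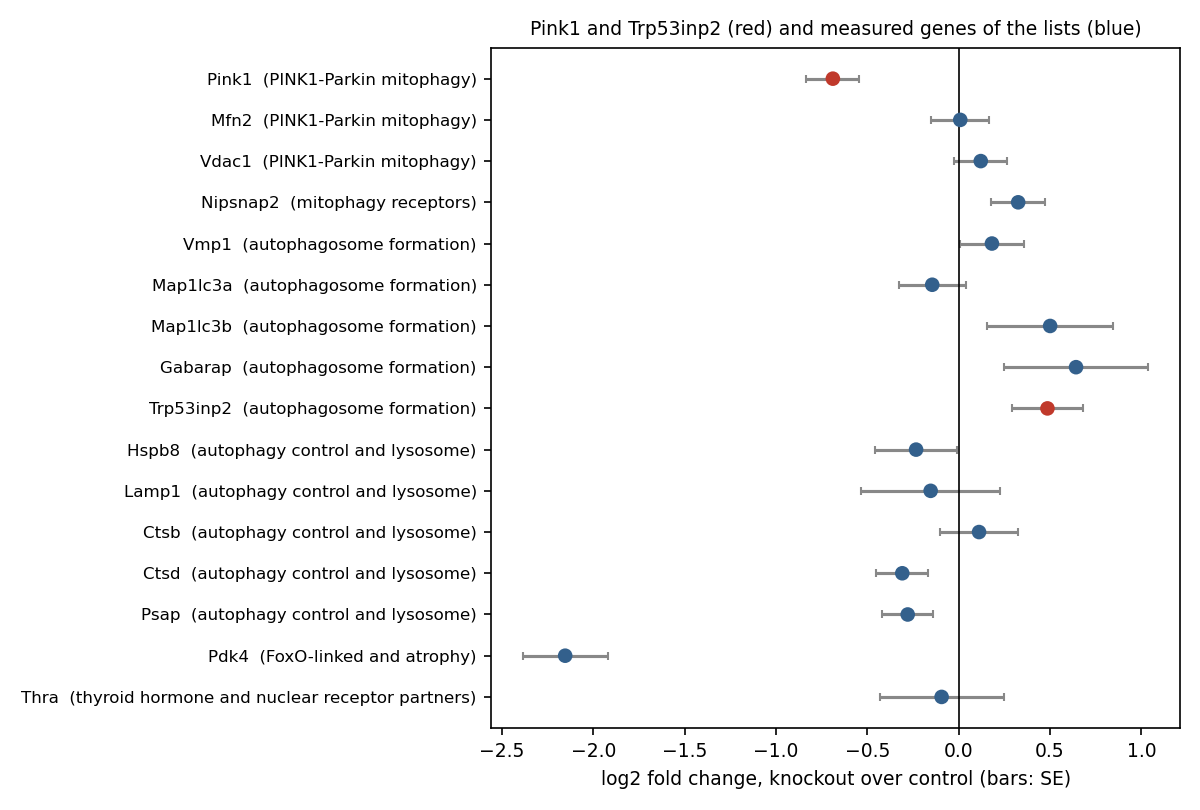
Log2 fold change of knockout over control (horizontal axis, bars are SE) for the 2 members in red and the 14 measured genes of the lists in blue, each with its list in parentheses. Pdk4 lies at -2.15 and was called, while the other blue points lie between -0.31 and 0.64 and were not.

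The genes whose pattern over the 4 libraries was most like that of each member were found by the Euclidean distance between log2 CPM values centred on each gene's mean. Nearest to Pink1 was Luc7l2, a splicing factor gene, at a distance of 0.09, followed by Plec, which encodes the linker protein plectin (0.24), and Rplp1, a ribosomal stalk protein gene (0.25). The merged pair 2600014E21Rik and Rps6-ps4 and the region shared by Snord17 and Snx5 came next, at 0.25 and 0.26. Nearest to Trp53inp2 was Map1lc3b at 0.03, followed by Got2, a mitochondrial aminotransferase gene (0.07), the cardiac cofactor genes Hopx (0.09) and Fhl2 (0.09), and Eif5a, a translation factor gene (0.20). The median distance over all genes was 0.85 from Pink1 and 0.70 from Trp53inp2. With 4 libraries and counts as low as 22 among these genes, many genes can lie close, and the distances are a description. When scaled by library totals only, the same 5 genes were nearest to each. A change of scaling moves all genes of a library nearly alike and so hardly alters these distances. That the genes stayed the same therefore supports nothing.

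**Figure D5:**
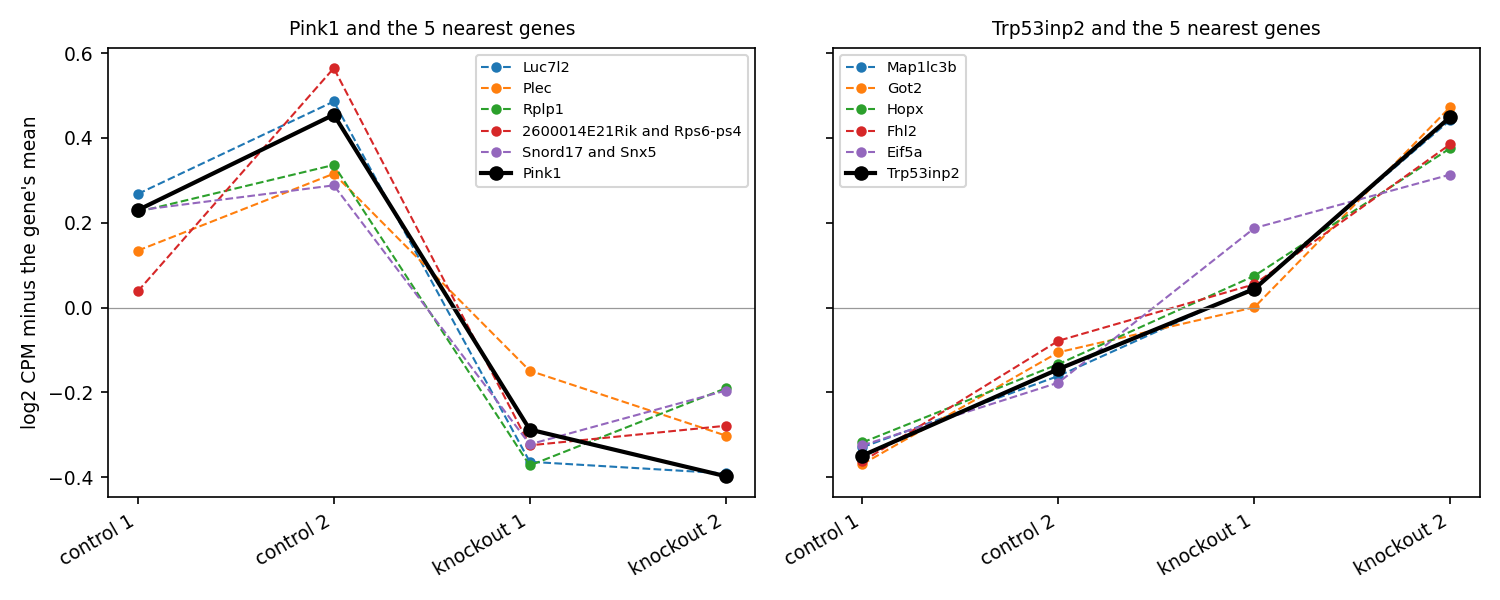
Log2 CPM minus the gene's mean (vertical axis) in the 4 libraries for Pink1 (left) and Trp53inp2 (right), in black, and the 5 nearest genes of each as dashed lines. Lines join libraries of no set order to show each profile. Map1lc3b lies at a distance of 0.03 from Trp53inp2 and Luc7l2 at 0.09 from Pink1.

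The coding sequences of the 2 genes share a high content of G and C, which the choice of members did not use. It was 62.0% in Pink1 (main transcript, coding length 1740 bases with the stop codon) and 63.2% in Trp53inp2 (663 bases), beside a median of 53.7% over 296 protein-coding genes of the table. Of those genes, 8.78% reached the Pink1 value and 5.07% the Trp53inp2 value. ac4C has been reported in mRNA at runs of triplets that start with C, so the longest such run in each coding sequence, in any frame, was found. It had 7 triplets in Pink1 and 6 in Trp53inp2, where the median gene of the table had 6, and 43.9% and 66.2% of the 296 genes had a run at least as long. C stood at the third codon position in 35.2% and 37.1% of codons, against a median of 31.6%. These runs are shown because no run in the coding sequence of their gene holds more such triplets, with each leading C in capitals. Untranslated sequence was not searched, and where runs tie only the first found is shown. The Pink1 run lies in exon 1 at chr4:138326005-138326025 on the minus strand and the Trp53inp2 run in exon 3 at chr2:155385911-155385928 on the plus strand (GRCm38, GENCODE M21).
Pink1: CcgCtaCcgCttCttCcgCca
Trp53inp2: CctCgcCtgCtcCtgCag
A run of this kind is a description of the sequence and not a site of ac4C, and whether the captured regions cover it is not known.

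The authors' deposited table also holds a log2 fold change per region, positive where control is higher. In the authors' deposited table it was 0.77 for the Pink1 region listed with Gm55915 and -0.08 for the Pink1 region listed with Mir7019, so the latter was given as slightly higher in knockout. In the authors' deposited table the Trp53inp2 regions stood at -1.97 (high-count) and -2.24 (low-count), higher in knockout, with a q-value of 1 for all 4 regions. The median over all regions of the authors' deposited table was -0.99, and 429 of the 558 were given as higher in knockout. Against that median both Pink1 regions lay towards control and both Trp53inp2 regions towards knockout. Without that centring the Mir7019 region lay slightly towards knockout. The authors' values are also unlike in size to those fitted here, where the Trp53inp2 high-count region stood at 0.26 for knockout over control.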

How the data were processed

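Per the labels' protocols, 1 ug of Trizol-extracted heart RNA entered each library after ribosomal RNA removal, and the design text adds a pulldown with an ac4C antibody. The tools FastQC and Salmon and the build mm10 come from the submitters' processing notes, with no version and no role. No source used here names the region caller, the read counter or how strand was handled. The authors deposited whole-number counts per region, and beside them their own log2 fold change, p-value and q-value, per the file headers.

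Of 652 lines, 94 repeats were removed, leaving 558 regions, of which 65 overlap no gene. Counts were also summed per gene, with genes of identical regions merged (390, of which 388 passed the filter). Of 16 member counts 13 were even, as were 77.9% to 83.3% of counts below 200 per library, so counts may not be independent molecules. Both tables were fitted whole with edgeR 4.0.16 in R 4.3.3 (filterByExpr, TMM, robust quasi-likelihood, adjusted p below 0.05), with DESeq2 1.42.0 as an alternative. The control libraries had TMM factors of 0.92 and 1.00 over regions and the knockout libraries 1.18 and 0.92. CPM is relative to the scaled total of the regions or, for genes, of the gene sums. The fit was also run on simulated counts drawn independently, without the excess of even counts, so this does not show how it performs on these data. Named genes are the members, list genes that passed, up to 4 others per list by CPM, and the 5 nearest by pattern. The members and lists were chosen with earlier results of these data known. No label ties a library to an animal of its own, so a p-value here covers the spread of these samples, which may be technical.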

Additional observations from a re-analysis of the deposited data

How the results depend on the processing

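The direction of all 4 regions and both genes held in the alternatives run. The filter removed no region, so leaving it out only repeats the region fit. In the authors' deposited table the Mir7019 region had the other direction, at -0.08 for control over knockout. As reported, 22 regions and 19 genes were called. This was 8 and 10 by library totals only, 6 and 4 with 18S scaling, 5 and 11 with the DESeq2 Wald test, and 30 genes with upper-quartile factors. Leaving out 1 library gave 13 to 37 regions and 10 to 40 genes. The cause was not tested. Scaling to totals or to 18S moved the median of all regions from 0.01 to 0.15 and 0.22. Ribosomal RNA was removed and ac4C was pulled down, so the 18S counts are not shown to be a neutral scale. The Pink1 gene stood at -0.51 with 18S scaling, its Gm55915 region at -0.53 by totals and -0.46 by 18S, and the Trp53inp2 high-count region at 0.39 and 0.45. Measured from the median of all genes, Pink1 was -0.74 as reported and -0.74 in both, and Trp53inp2 0.44, 0.42 and 0.41. A change of scaling moves all genes nearly alike, so these values could hardly differ and their likeness supports nothing. Leaving out 1 library gave -0.80 to -0.58 for the Pink1 gene, 0.29 to 0.69 for Trp53inp2, -0.75 to -0.56 for the Gm55915 region, -1.22 to -0.50 for the Mir7019 region, 0.17 to 0.35 for the high-count region and 0.54 to 1.20 for the low-count region. With the replicate number as a block, 1 region and 16 genes were called. Same-numbered libraries deviated with a correlation of -0.16, so the numbers are not shown to pair the libraries. A crossed block, chosen after seeing the data, called 42 regions and 23 genes. Omitting regions that overlap no gene gives no value of its own for gene sums. Depth limits the Trp53inp2 low-count region most, with 21 counts in control replicate 1.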
